A study of Oryza sativa with 6 samples.

Results

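The 7 genes described here were *LTP*, *LTP110-A*, *OsC6* and *PXG*, together with every further gene in the rice annotation that carried a symbol or synonym of the LTP, OsLTP or oleosin (OLE) series and had a probe set paired with it alone. Names of this kind were found for 9 genes. Of these, *LTP2-A* had no probe set in the annotation, and *OLE18*, for an oleosin, had only probe sets that are paired with a further gene as well. The remaining 7 genes had 9 probe sets, out of 17905 genes and 57194 probe sets tested. Among them 6 were counted as lipid transfer protein genes, *OsC6* by its known product and the others by name. The remaining gene was *PXG*, for a peroxygenase of oil bodies. The name *LTPL1* was taken as the annotation gives it, and no function is stated for that gene.

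Plant lipids do not cross watery compartments unaided, and seeds keep part of their reserves as oil. Lipid transfer proteins are small secreted proteins, held together by disulphide bridges, that bind fatty acids and phospholipids in a hydrophobic cavity and are known from cuticles, anthers, defence and developing seeds. Oil bodies are droplets of triacylglycerol coated by oleosins and by caleosins, and in cereal grains they are packed into the embryo and the aleurone layer. Caleosins bind calcium and act as peroxygenases, enzymes that oxidise unsaturated fatty acids.

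Seeds of PB1 rice were collected in stage S3, 5 to 10 days after pollination, and their total RNA was hybridised to Affymetrix rice genome arrays. There were 3 arrays from plants carrying an RNA interference construct that silences *OsMADS29* (MADS29 RNAi) and 3 from wild-type plants (WT). *OsMADS29* encodes a B-sister MADS-box transcription factor of the developing seed. The promoter and target region of the construct, and which transformed lines the MADS29 RNAi arrays came from, were not found in the labels or the main methods, and the supplementary methods were not used here. The series calls the arrays biological replicates, and whether they came from separate plants is not stated, so the p-values measure the spread between these arrays.

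*OsMADS29* read 5.17, 5.11 and 4.90 on the log2 scale in MADS29 RNAi seeds, against 7.16, 6.60 and 7.30 in WT seeds. The groups did not overlap, and the signal in MADS29 RNAi seeds was 25.7% of that in WT seeds (limma adjusted p = 0.00725). The level that marks background was 2.92, 2.92 and 2.85 on the log2 scale on MADS29 RNAi arrays, and 2.79, 2.80 and 2.78 on WT arrays. MADS29 RNAi replicate 1 and WT replicate 2 had no signal above that level at the 5′ end of actin (2.75 and 2.33), whereas the other arrays read 5.86 to 6.42, so each group holds 1 array of this kind. The poly-A control transcripts added to the RNA averaged 4.94 to 5.75 in MADS29 RNAi seeds and 4.14 to 4.95 in WT seeds on the log2 scale, and their part in the results was not tested. Counts of called markers are read against 25.7% of all genes, 10.8% called up and 14.8% down. Of 8 endosperm markers 4 rose and 0 fell, with a summed intensity of 61420 to 62860 units in MADS29 RNAi seeds and 44514 to 52817 units in WT seeds, and 1 of the 8, *GLUB-4*, was at background on all 6 arrays. Of 8 embryo markers 1 rose (*OsVP1*) and 0 fell, and the root and stem cell regulators *QHB* and *OsSCR1* were at background on all 6 arrays. The summed embryo marker intensity was 188 to 222 units in MADS29 RNAi seeds and 168 to 197 units in WT seeds. Of 4 markers of the green pericarp *OsrcaA1* rose and *CAB2R* and *LIR1* fell, with a summed intensity, most of it from *CAB2R*, of 4467 to 4806 units in MADS29 RNAi seeds and 8271 to 8739 units in WT seeds. Of 7 genes listed as markers of nucellus and maternal tissue, *OsVPE1* rose, and *OsAsp1* and the silenced *OsMADS29* itself fell. The annotation also lists *OsVPE1* as *Glup3*, and in whole seeds its rise cannot be placed in a tissue. *OsAsp1* was at background on 2 of the 3 MADS29 RNAi arrays, and *OsMADS30* on all 6 arrays. Most of the summed intensity came from *OsSWEET11*, which was not called. The sum was 6042 to 6559 units in MADS29 RNAi seeds and 4828 to 5198 units in WT seeds. The part of these tissues in the results was not tested. In whole seeds, fewer cells of a type and less RNA per cell cannot be told apart.

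Silencing of *OsMADS29* went with large changes in opposite directions within this group of genes. *PXG*, *LTP* and *LTP-2* were higher in MADS29 RNAi seeds, *LTP110-A* and *LTPL1* were lower, *LTP2-B* was not called, and *OsC6* was not detected above background. Taking for each gene its probe set of highest mean, 3 of the 7 genes rose and 2 fell at a limma adjusted p under 0.05. The members were chosen with earlier results of these data known, so their counts describe these genes only. Over all probe sets 11.3% were called, and over the 17905 genes taken in the same way 25.7% were called, 10.8% up and 14.8% down. Of the 12796 genes above background on all arrays of at least 1 group, as 6 of the 7 genes were, 35.5% were called, 14.8% up and 20.7% down. With a change of at least 2-fold as well, 2 of the 7 genes rose and 2 fell, against 4.91% and 5.92% of all genes. The groups did not overlap for 6 of the 7 genes, and for 59.1% of all genes. The median difference of the 7 genes was 0.10 on the log2 scale, which is the value of *OsC6* at background, against 0.01 over all genes.

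**Figure D1:**
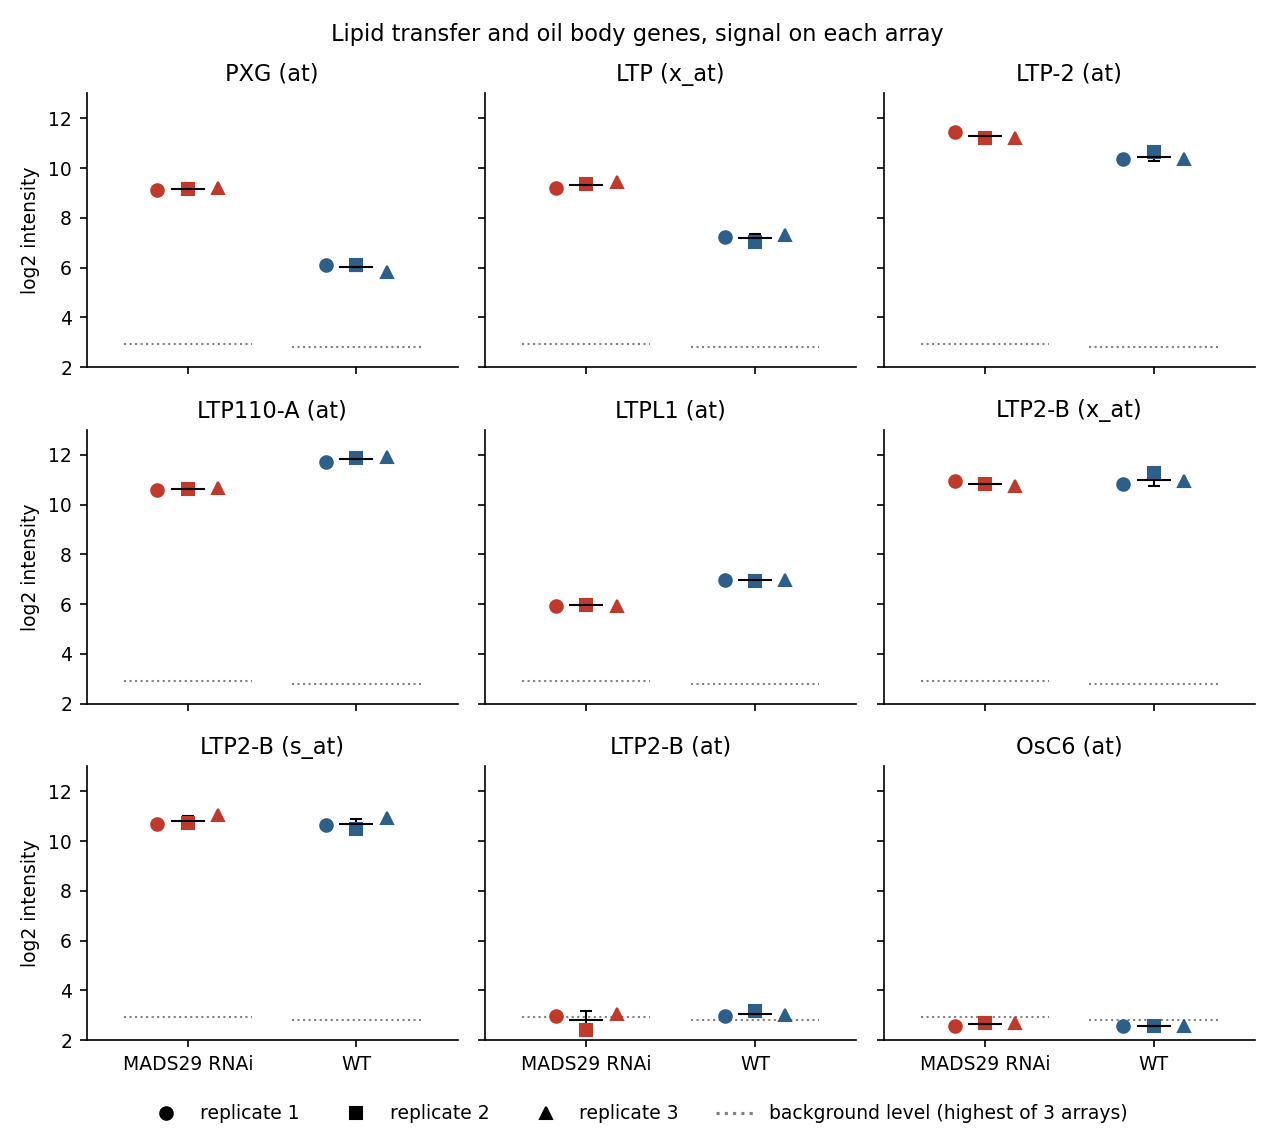
Signal of each of the 9 probe sets on each array, as log2 intensity on the vertical axis, with MADS29 RNAi arrays at left and WT arrays at right. Symbols stand for replicates, the black bar and whiskers for the mean and SD of 3 arrays, and the dotted line for the highest background level in that group. PXG and LTP stand clearly higher in MADS29 RNAi seeds, LTP110-A and LTPL1 lower, and OsC6 lies under the dotted line on all 6 arrays.

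*PXG* showed the largest change of the 7 genes. It read 9.10, 9.16 and 9.21 on the log2 scale in MADS29 RNAi seeds, against 6.10, 6.11 and 5.84 in WT seeds. All MADS29 RNAi arrays stood far above all WT arrays, and the arrays within each group lay close together. The difference was 3.14 ± 0.09 on the log2 scale (SE, 95% interval 2.92 to 3.37), or 8.84-fold, with a limma adjusted p of 0.000227. Of all 57194 probe sets, 34649 of them at background on all 6 arrays, 0.233% changed by more in either direction. Leaving out any 1 array gave differences between 3.05 and 3.19, all called. The probe set of *PXG* is paired with this gene alone and is not of the kinds (s_at and x_at) that share probes with related transcripts.

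*LTP*, which the annotation also lists as *PAPI*, was the lipid transfer protein gene that rose most. Its signal was 9.19, 9.34 and 9.42 on the log2 scale in MADS29 RNAi seeds, against 7.25, 7.04 and 7.32 in WT seeds, again with no overlap. In each group the array without 5′ actin signal read lowest. The difference between the groups was 2.11 ± 0.10 on the log2 scale (SE, 95% interval 1.85 to 2.37), or 4.33-fold, with a limma adjusted p of 0.000797. The difference stayed between 2.03 and 2.18 when any 1 array was left out, and was called each time. The single probe set of *LTP* is of the x_at kind, so transcripts of related genes can add to its signal.

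*LTP-2*, listed also as *nsLTP2*, rose less. It read 11.44, 11.21 and 11.21 on the log2 scale in MADS29 RNAi seeds, against 10.36, 10.65 and 10.37 in WT seeds. The groups did not overlap, and the highest array of each group was the one without 5′ actin signal. The difference of 0.83 ± 0.11 on the log2 scale (SE, 95% interval 0.54 to 1.11) was 1.77-fold, with a limma adjusted p of 0.0135. The adjusted p was 0.000398 with the 5′ actin class of the arrays as a term and 0.00266 in the 4 arrays with alike 5′ signal. It reached 0.0501 without MADS29 RNAi replicate 2, 0.0581 without WT replicate 1 and 0.0636 without WT replicate 3, and in these fits *LTP-2* was no longer called although the difference was 0.78 to 0.86.

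*LTP110-A*, which encodes a lipid transfer protein studied in rice for its activity against microbes, was lower. It read 10.57, 10.64 and 10.66 on the log2 scale in MADS29 RNAi seeds, against 11.72, 11.86 and 11.89 in WT seeds. Every MADS29 RNAi array lay more than the spread of either group below every WT array. The gene fell by 1.20 ± 0.06 on the log2 scale (SE) to 43.5% of the WT signal, with a limma adjusted p of 0.000762. Without any 1 array the difference was −1.25 to −1.17, called each time.

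*LTPL1* was lower by a similar size and had the smallest standard error of the 9 probe sets. It read 5.94, 5.97 and 5.93 on the log2 scale in MADS29 RNAi seeds, against 6.98, 6.94 and 6.97 in WT seeds. The arrays of each group agreed within 0.02 (SD), and the groups did not overlap. The difference was −1.02 ± 0.02 on the log2 scale (SE, 95% interval −1.06 to −0.98), so the MADS29 RNAi signal was 49.3% of the WT signal (limma adjusted p = 9.59e-05). The SE was larger in other fits, 0.08 with a variance trend and 0.07 without dim probe sets, and the gene was called in both. With quantile normalization the difference was −0.99, still called but under 2-fold. Its probe set is paired with this gene alone.

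**Figure D2:**
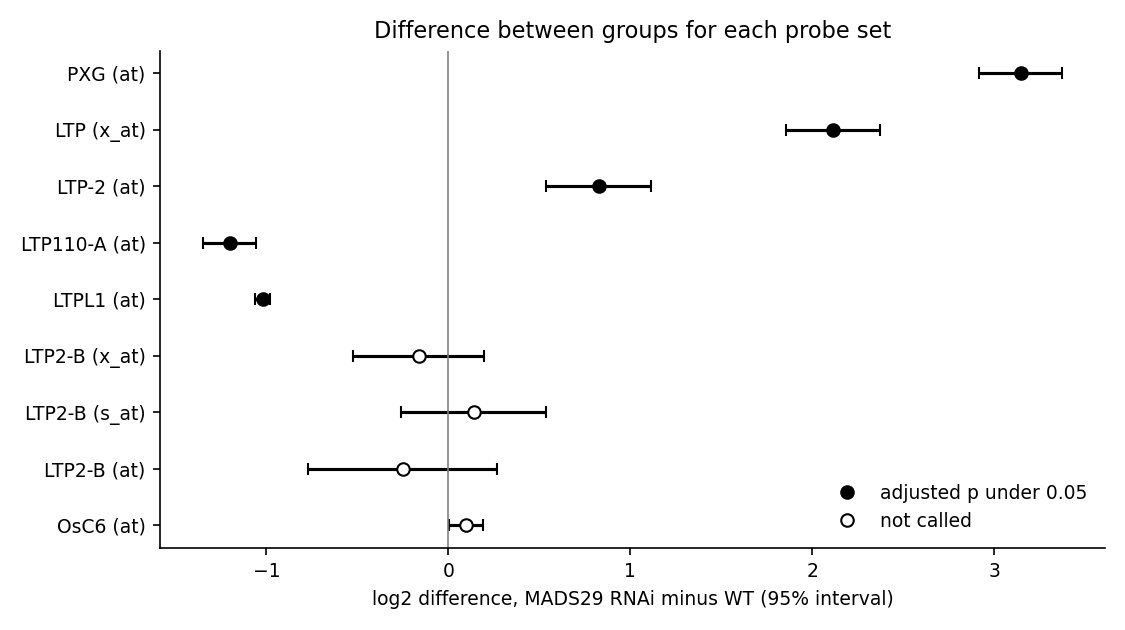
Difference between MADS29 RNAi and WT seeds for each of the 9 probe sets on the horizontal axis (log2 scale), with 95% intervals from the limma fit. Filled points passed an adjusted p of 0.05. PXG (3.14), LTP (2.11) and LTP-2 (0.83) lie to the right of 0, LTP110-A (−1.20) and LTPL1 (−1.02) to the left, and all 3 LTP2-B probe sets have intervals that include 0.

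*LTP2-B* has 3 probe sets, and none was called. The brightest, of the x_at kind, read 10.95, 10.83 and 10.73 on the log2 scale in MADS29 RNAi seeds, against 10.81, 11.26 and 10.93 in WT seeds. The groups overlapped, with a difference of −0.16 ± 0.14 (SE, 95% interval −0.52 to 0.20, limma adjusted p = 0.386). The s_at probe set read 10.70, 10.71 and 11.05 in MADS29 RNAi seeds, against 10.63, 10.50 and 10.91 in WT seeds. Here the difference was 0.14 ± 0.15 (SE, 95% interval −0.26 to 0.54, limma adjusted p = 0.49), also with overlap. The x_at and s_at probe sets were thus of opposite sign, but neither interval settles the sign. A change of 2-fold in either direction lay outside both intervals. The third probe set, which does not belong to the kinds that share probes, lay near background. It read 2.98, 2.39 and 3.04 in MADS29 RNAi seeds, against 2.97, 3.17 and 3.01 in WT seeds, and its difference was −0.25 ± 0.20 (SE, 95% interval −0.77 to 0.27, limma adjusted p = 0.363). The bright signal credited to *LTP2-B* therefore rests on probe sets that related transcripts can reach.

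In the RefSeq gene table *LTP2-B* and *LTP* stand next to each other with 0 genes between them, as do *LTP110-A* and *LTP2-A*. The signals credited to *LTP* and *LTP2-B*, both read with x_at probe sets, moved unequally. Relative to the WT mean, the log2 ratio of *LTP* to *LTP2-B* signal within an array was 2.03, 2.31 and 2.49 in MADS29 RNAi seeds, against 0.23, −0.42 and 0.19 in WT seeds. In each group the lowest ratio came from the array without 5′ actin signal. The groups were apart by 2.28 on the log2 scale, with p = 0.10 in a two-sided exact permutation test, below which 3 arrays against 3 cannot go.

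*OsC6* encodes a lipid transfer protein that the tapetum of the anther secretes and that is needed for the pollen wall. It read 2.58, 2.67 and 2.71 on the log2 scale in MADS29 RNAi seeds, against 2.55, 2.58 and 2.55 in WT seeds. All 6 arrays were under the background level, so no fold is given. The MADS29 RNAi arrays nevertheless lay above the WT arrays by 0.10 ± 0.04 (SE, limma adjusted p = 0.166, unadjusted p = 0.0477). Of all genes, 32.2% likewise had every MADS29 RNAi array above every WT array. Of all probe sets, 46.5% did, and 12.1% had every MADS29 RNAi array below every WT array. The background level too was higher on every MADS29 RNAi array than on every WT array. *OsC6* was called at 0.13 without MADS29 RNAi replicate 1 (adjusted p = 0.0265), still under background. Of the 12 anther and tapetum markers measured, *OsC6* included, 6 were at background on all 6 arrays, among them *TDR*, *EAT1*, *RTS* and *OsRAFTIN1*. Among the others *DTM1* rose, while *GAMYB* and *PAIR2* fell. *PAIR2* was at background on all 3 MADS29 RNAi arrays. The summed intensity of the 12 genes was 287 to 329 units in MADS29 RNAi seeds and 224 to 257 units in WT seeds. Its largest part came from *MSP1*, which was not called (limma adjusted p = 0.148).

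**Figure D3:**
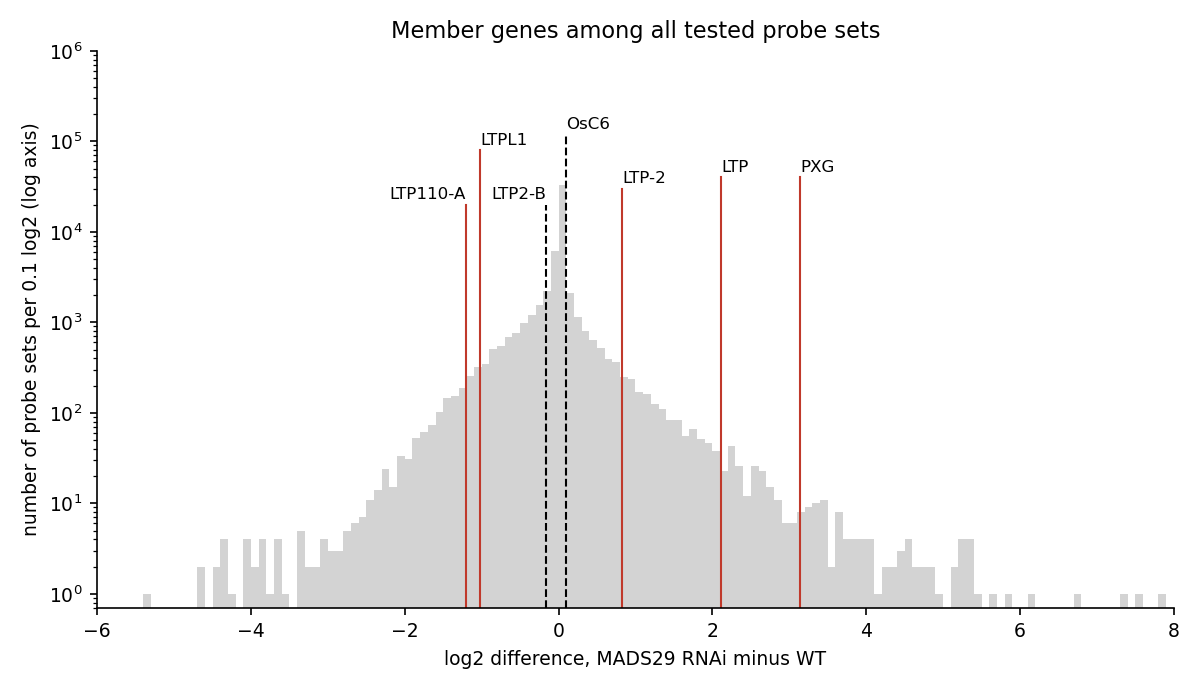
Differences of all 57194 tested probe sets between MADS29 RNAi and WT seeds (horizontal axis, log2 scale) as a histogram with a log vertical axis that counts probe sets per step of 0.1. Vertical lines mark the probe set of highest mean of each of the 7 genes, solid red where called and dashed black where not. PXG and LTP lie far into the right tail, where 0.233% and 0.724% of probe sets changed by more in either direction. Of all the probe sets counted, 34649 were at background on all 6 arrays.

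Genes whose signal ran most like that of *PXG*, *LTP* and *LTP110-A* were sought among 1911 other named genes above background in at least 1 group, by the root mean square difference over the 6 arrays of log2 values taken relative to the WT mean. The measure is a description over 6 arrays in which the group difference weighs most. Nearest to *LTP* were *OsPMEI8*, for an inhibitor of pectin methylesterase (distance 0.08 on the log2 scale, difference 2.10 ± 0.12, SE), and *APR-like1*, a relative of sulphate reduction enzymes (distance 0.10, difference 2.18 ± 0.08). For *LTP110-A* the search gave *MAGO1*, for a Mago nashi homologue, which fell by 1.18 ± 0.08 (SE, distance 0.08), and *AGO14*, for an Argonaute protein. *AGO14* was at background on all 3 MADS29 RNAi arrays, so its distance is not measured and it was at least 1.73-fold lower, a bound set against the background level. For *PXG* it gave *AMY1.4* (*RAmy3E*), for an alpha-amylase, and *OsSAP5*, of the stress-associated protein family, which were at background on 2 and 1 of the 3 WT arrays and have no measured distance either. Among the 1750 genes above background on all 6 arrays, a choice made after these values were seen, the nearest to *LTP* were the same, *MAGO1* and *DAPB1* (distance 0.09, difference −1.25 ± 0.04, SE) were nearest to *LTP110-A*, and *HSF24*, for a heat shock factor (distance 0.25, difference 3.26 ± 0.13), and *GST-I*, for a glutathione S-transferase (distance 0.26, difference 2.89 ± 0.12), were nearest to *PXG*.

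Other genes of lipid metabolism and their regulators were measured in 4 lists, with 1 gene called in each, or 11.1% to 33.3% of a list against 25.7% of all genes. The lists hold only genes known by a symbol in the annotation, so they are short. In the list for oil bodies and triacylglycerol, 1 of 4 genes rose and 0 fell (median log2 difference 0.32). The riser was *OsVP1*, listed among the embryo markers too, a regulator of maturation and dormancy in the seed. It read 6.25, 6.07 and 6.06 on the log2 scale in MADS29 RNAi seeds and 5.10, 5.34 and 5.04 in WT seeds (difference 0.97 ± 0.10, SE, limma adjusted p = 0.00658). *OsDGAT1-1*, for an acyltransferase that makes triacylglycerol, differed by 0.40 (95% interval −0.12 to 0.92, adjusted p = 0.229) and was not called. *OsICL*, for the isocitrate lyase that turns stored fat into sugar, was at background on all 3 WT arrays and on 2 of the MADS29 RNAi arrays.

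In the list for fatty acid synthesis and desaturation, 1 of 3 genes rose and 0 fell (median 0.23). This was *SSI2*, for a stearoyl-ACP desaturase, which read 9.29, 9.32 and 9.10 in MADS29 RNAi seeds and 8.75, 8.85 and 8.79 in WT seeds (difference 0.44 ± 0.07, SE, limma adjusted p = 0.0201). Of the 6 fits that left out 1 array *SSI2* was called in 1, with adjusted p up to 0.0886, and in the 4 arrays with alike 5′ signal its adjusted p was 0.110. *OsACBP4*, for a protein that binds acyl-CoA, differed by −0.54 (95% interval −0.86 to −0.21, adjusted p = 0.0658) and was not called.

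In the list for cuticle, wax and anther lipids, 1 of 5 genes fell and 0 rose (median 0.01), with 2 of the 5 at background on all 6 arrays. The gene that fell was *ROC5*, for a homeodomain regulator of the leaf epidermis, which read 6.26, 5.89 and 5.85 in MADS29 RNAi seeds and 7.0, 7.33 and 6.96 in WT seeds. It fell by 1.10 ± 0.16 (SE, limma adjusted p = 0.0177), and was called in 2 of the 6 fits that left out 1 array (adjusted p up to 0.0731).

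In the list for oxylipins, which are made from oxidised fatty acids, 1 of 9 genes rose and 0 fell (median 0.03), with 4 of the 9 at background on all 6 arrays. *OsOPR7*, which codes for a reductase of the jasmonate pathway, rose. It read 6.21, 6.45 and 6.32 in MADS29 RNAi seeds and 5.95, 5.96 and 5.89 in WT seeds (difference 0.39 ± 0.07, SE, limma adjusted p = 0.0277). It was called in 2 of the 6 fits that left out 1 array, with adjusted p up to 0.112.

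**Figure D4:**
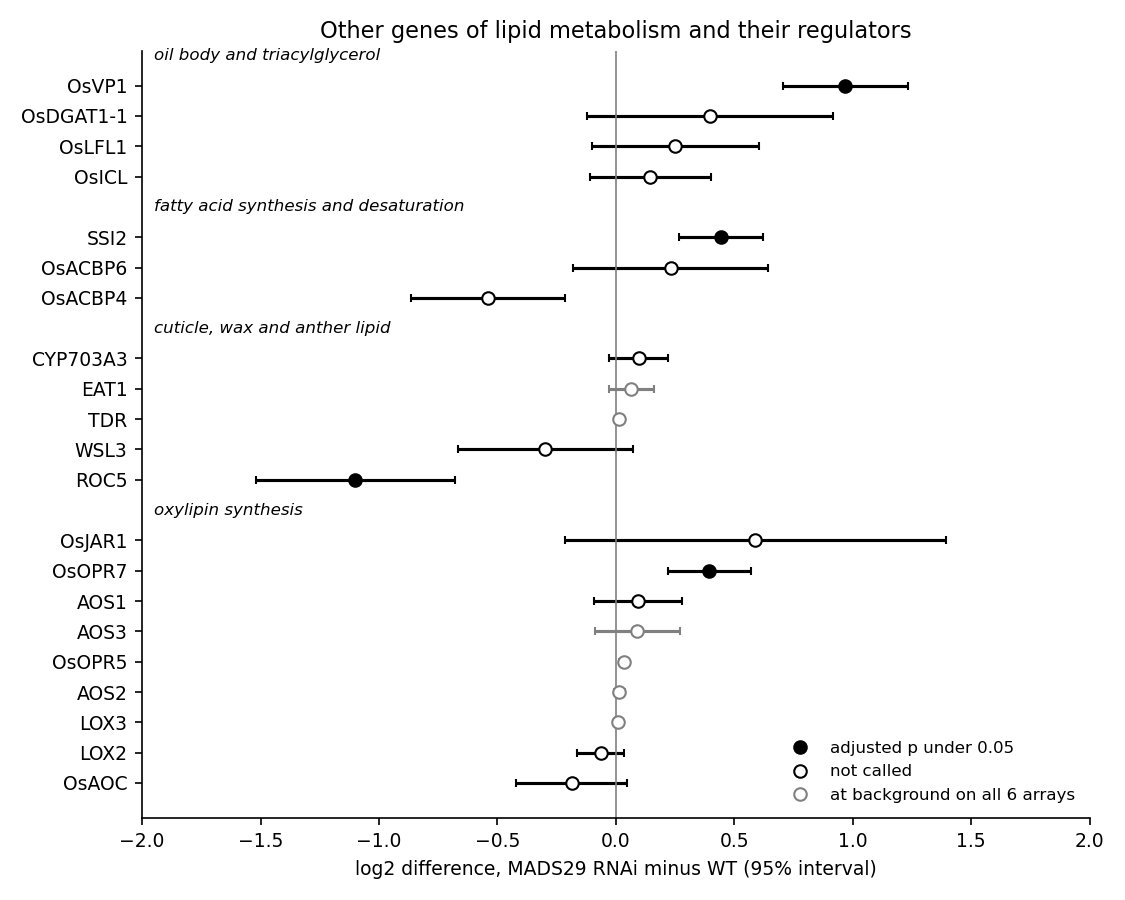
Differences between MADS29 RNAi and WT seeds for the genes of the 4 lipid lists (horizontal axis, log2 scale) with 95% intervals from the limma fit, sorted within each list. Filled points passed an adjusted p of 0.05, and grey points were at background on all 6 arrays. OsVP1, SSI2 and OsOPR7 lie to the right of 0 and ROC5 to the left.

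The direction of all 5 called genes was the same in each of the 14 other fits made for it. The differences of *PXG* lay between 3.05 and 3.22 over these fits, those of *LTP* between 2.03 and 2.18, those of *LTP110-A* between −1.25 and −1.15 and those of *LTPL1* between −1.04 and −0.99, and these 4 genes were called in every one. *LTP-2* lay between 0.75 and 0.94. Without probe sets of the x_at and s_at kinds, which removes *LTP*, 2 genes rose and 2 fell. In the 4 arrays with alike 5′ actin signal 4 rose and 2 fell, the added gene being *OsC6* at background.

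**Figure D5:**
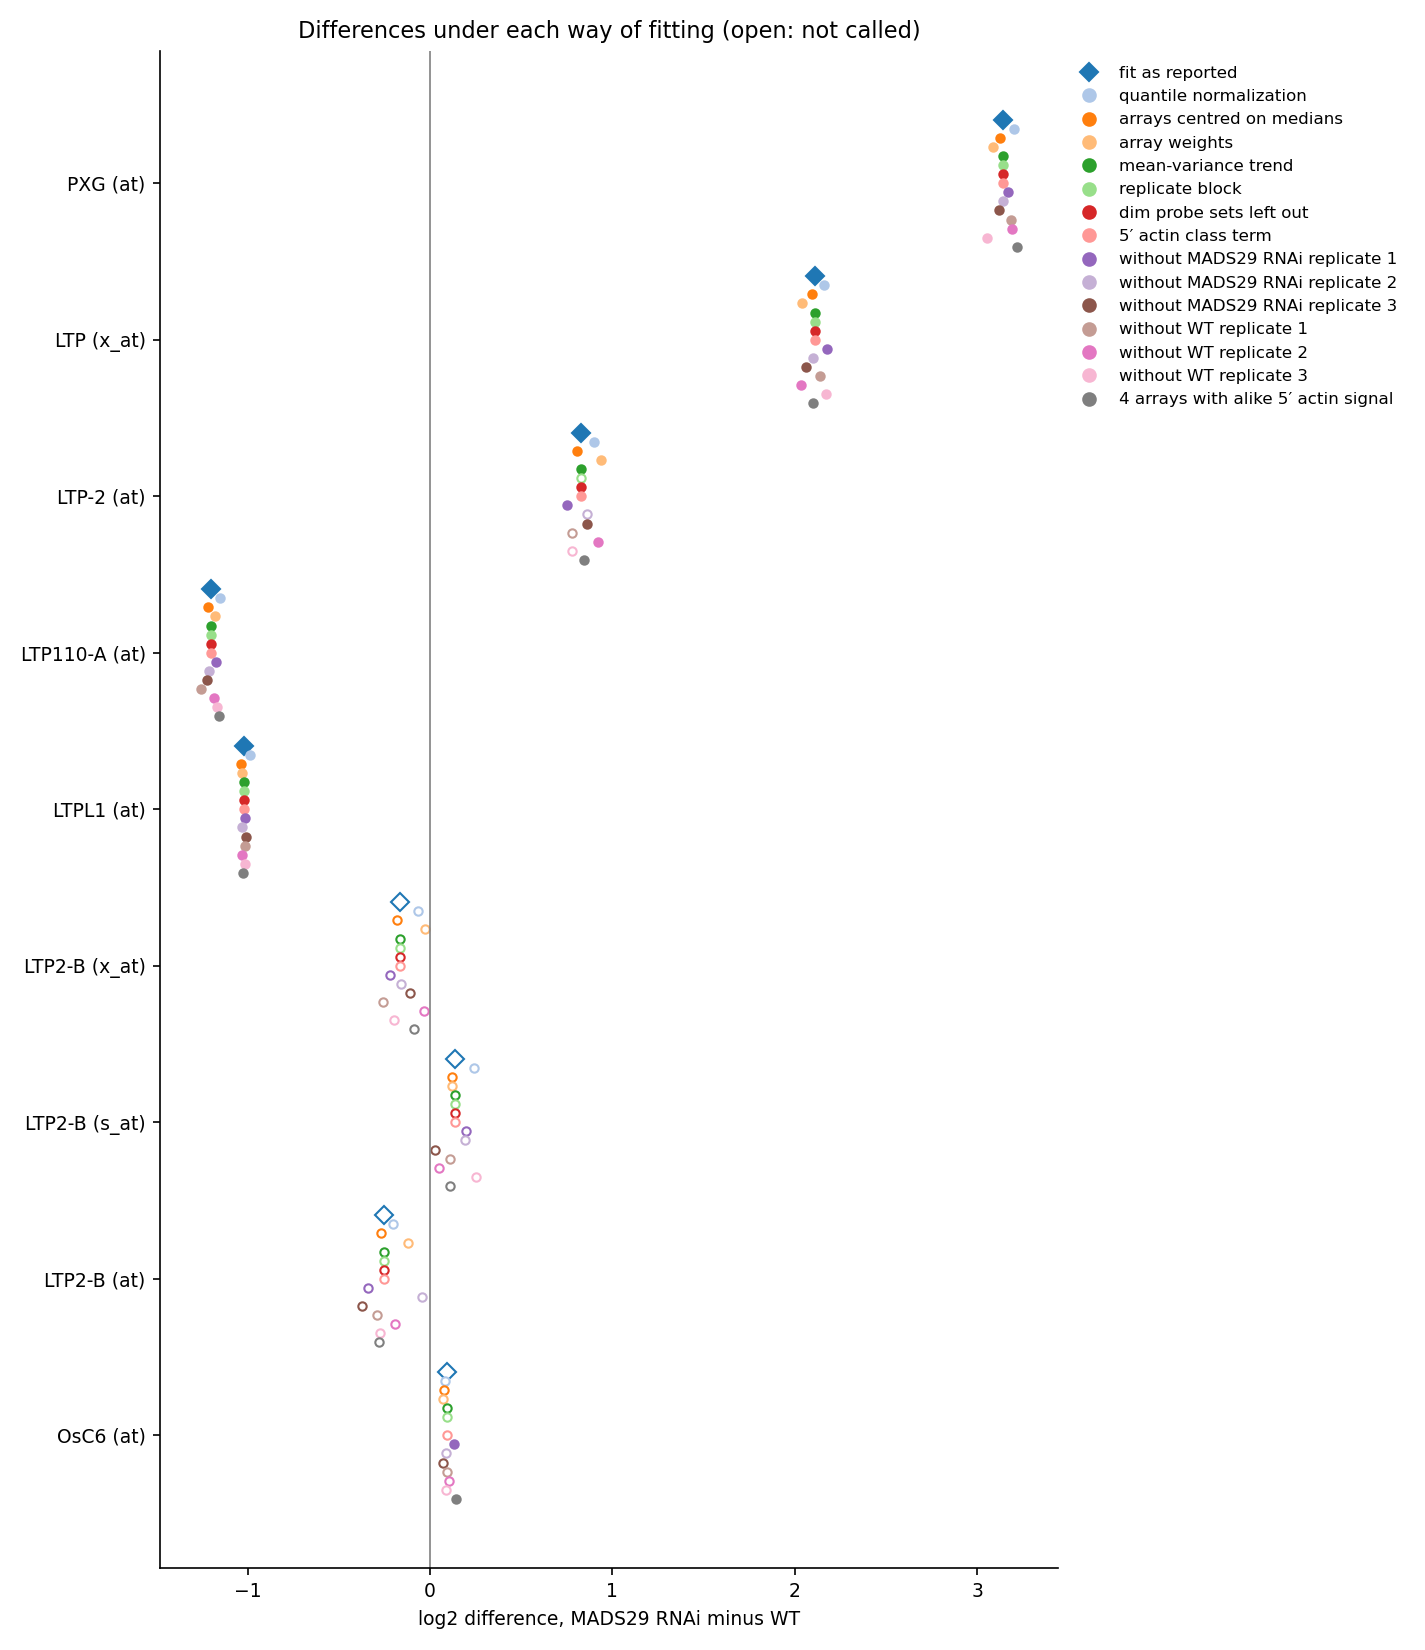
Differences between MADS29 RNAi and WT seeds (horizontal axis, log2 scale) for each of the 9 probe sets under the fit as reported (diamond) and each alternative (circles, coloured by setting), filled where the adjusted p was under 0.05. The circles of PXG, LTP, LTP110-A and LTPL1 are all filled and stay close to their diamonds, LTP-2 has open circles at a like difference, and the LTP2-B circles are all open. OsC6, at background, has 2 filled circles.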

How the data were processed

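The values are intensity on a linear scale (3.98 to 16101), deposited by the authors as 1 table of 57381 probe sets on 6 arrays, prepared per the labels from 500 ng of total RNA. The method of background correction, summarization and normalization is not given in the sources used here, which do not include the study's supplementary methods. Log2 was taken with no further normalization, and 123 AFFX and 64 reporter probe sets were left out of the tests.

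MADS29 RNAi and WT arrays were compared with limma 3.58.1 (lmFit and eBayes) in R 4.3.3, adjusted by Benjamini-Hochberg over 57194 probe sets. The exact permutation test used SciPy 1.17.1. The model was tested on simulated data with known changes. Precision is limited by the number of arrays.

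Background was the 95th percentile, per array, of 74 probe sets for sequences foreign to rice. A gene with its group at background was given a bound.

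Of the tested probe sets, 22436 were paired by the annotation with 1 gene and 95 with several, and 34663 had none listed. All 17905 genes were found by gene ID in the RefSeq table (ASM3414082v1), used for names and gene order only. Names matching several genes were left out of lists, and lists by product could not be applied because the tables hold no products.

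The text names all members, up to 3 risers and 3 fallers per lipid list by smallest adjusted p among genes whose groups did not overlap, and the 2 named genes nearest in pattern to *LTP*, *LTP110-A* and *PXG*. Genes nearest in pattern among those above background on all arrays, *OsDGAT1-1*, *OsACBP4*, *OsICL* and single markers were added after their values were seen. The members and lists were chosen with earlier results of these data known. Alternatives were quantile normalization, median centring, array weights, a variance trend, the replicate number as a block, the removal of dim probe sets, the 5′ actin class and the removal of each array. A fit on the 4 arrays with alike 5′ actin signal was chosen after seeing the data.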

Additional observations from a re-analysis of the deposited data

Results flagged for a closer look

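A signal stood out in probe sets that none of the comparisons used. There are 2 probe sets that the annotation pairs with *OLE18*, for an oleosin of the oil body coat, and with a second gene as well, so their signal was assigned to neither gene. The first read 12.60, 12.56 and 12.59 on the log2 scale in MADS29 RNAi seeds, against 11.47, 11.38 and 11.36 in WT seeds. The groups did not overlap, and the difference was 1.18 ± 0.03 (SE, 2.27-fold, limma adjusted p = 0.000237). It ranged from 1.16 to 1.21 when any 1 array was left out, and was called each time. The second, of the x_at kind, read 7.24, 9.78 and 9.91 in MADS29 RNAi seeds, against 10.38, 8.24 and 10.32 in WT seeds. Its lowest array in each group was the one without 5′ actin signal, and the groups overlapped. Its difference was −0.67 ± 1.03 (SE, limma adjusted p = 0.613), or −0.67 with an adjusted p of 0.0487 once the 5′ actin class of the arrays was a term. Leaving out any 1 array gave −1.38 to 0.20, so its sign is not settled without that term. Among arrays alike in 5′ actin signal, MADS29 RNAi read lower than WT, opposite to the first probe set. The values were 7.24 against 8.24 without 5′ signal, and 9.78 and 9.91 against 10.38 and 10.32 with it.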

How the results depend on the processing

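With the replicate block, adjusted p was 0.107 for *LTP-2* (difference 0.83) and 0.0796 for *OsMADS29* (−1.96), 2 members rose and 2 fell, and no other call among the 7 genes changed. Deviations of same-numbered arrays correlated at −0.53, −0.53 and 0.43. Taken within groups of 3 arrays, they cannot decide whether the numbers pair the arrays, which was not tested. The block left 997 probe sets up and 1143 down (608 and 598 with 2-fold), against 2901 and 3589 (1170 and 1426), and 0 genes called in all 4 lipid lists. Array weights gave 4765 probe sets up and 2 oxylipin genes up, a variance trend 0 oxylipin genes up, and quantile normalization 1 member down with 2-fold. The 5′ actin class term gave 2 genes up in the list for oil bodies and triacylglycerol. For fatty acid genes, 1 was called down with quantile normalization, without dim probe sets, with the class term and in the 4 arrays, where 0 were called up. Leaving out 1 array gave 1499 to 2490 probe sets up and 2097 to 3191 down, *LTP-2* at 0.75 to 0.92, *OsC6* at 0.070 to 0.13 (0.14 in the 4 arrays, adjusted p = 0.0366), 0 to 1 fatty acid genes up and 0 to 1 down, 0 to 1 cuticle genes down and 0 to 1 oxylipin genes up. The cause of these moves was not tested. Of 368 values recomputed over all results, 323 were judged alike. A difference was alike if it kept its direction and its side of the threshold. A count was alike if it stayed of similar size, so it could move and still be judged alike. The count of members called up, for example, ran from 2 to 4 and was judged alike throughout. With the highest foreign probe set as background, 6 of the 7 genes were again above it.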
